A study of Homo sapiens with 4 samples.

Results

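TXNIP, FBXO32, ARRDC3 and ARRDC4 are 4 of the 26364 gene symbols counted in NCI-H460 cells, a human cell line from a lung carcinoma of the non-small cell type. They were chosen by symbol: FBXO32 and TXNIP as genes that earlier work tied to 3-deazaneplanocin A (DZNep), and ARRDC3 and ARRDC4 as relatives of TXNIP. All 4 passed the filter on low counts and were among the 13378 genes tested. The study had 4 groups of 1 library each: gamma radiation at 4 Gy followed by 2 uM DZNep (DZNep 4 Gy), no radiation followed by DZNep (DZNep 0 Gy), 4 Gy followed by the solvent DMSO (DMSO 4 Gy), and no radiation followed by DMSO (DMSO 0 Gy). Drug or solvent was left on for 48 h after irradiation, per the labels' protocols, and all 4 groups share the same line. The layout lets drug, dose and their combination be compared. Levels are given as CPM, counts scaled to library size by the TMM method, and no group has a replicate.

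TXNIP, thioredoxin-interacting protein, binds reduced thioredoxin and limits its activity. It also belongs to the alpha-arrestins, adaptor proteins with arrestin domains, of which ARRDC3 and ARRDC4 are further members. Alpha-arrestins hand membrane proteins such as glucose transporters, receptors and integrins to ubiquitin ligases of the NEDD4 family, and these proteins are then internalised. TXNIP and ARRDC4 are textbook targets of the glucose-sensing transcription factors MondoA (gene MLXIP) and ChREBP (gene MLXIPL), which bind DNA as dimers with MLX. FBXO32, also called atrogin-1, is the substrate-binding subunit of an SCF ubiquitin ligase; it is best known from wasting muscle, where FOXO factors switch it on. DZNep blocks the hydrolase encoded by AHCY, which clears S-adenosylhomocysteine, and so slows methyltransferases such as EZH2 of the Polycomb complex PRC2.

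The upstream sequences of TXNIP and ARRDC4 are shown because both genes are known targets of MondoA, and a short stretch of ARRDC3 because it shares an element with TXNIP. RefSeq start sites on GRCh38.p14 were matched by symbol for 3 of the 4 genes, and FBXO32 is named only. Capitals mark matches, on either strand, to CACGNG (the core repeated in carbohydrate response elements), to CCAAT, and to GTAAACA (a forkhead element, the kind that FOXO factors bind). These elements were picked with the sequences in view. Bases that GENCODE release 29 places in an exon are left out, except in the short stretch.
TXNIP, chr1:145996601-145996829, minus strand, 250 to 22 bases before the start: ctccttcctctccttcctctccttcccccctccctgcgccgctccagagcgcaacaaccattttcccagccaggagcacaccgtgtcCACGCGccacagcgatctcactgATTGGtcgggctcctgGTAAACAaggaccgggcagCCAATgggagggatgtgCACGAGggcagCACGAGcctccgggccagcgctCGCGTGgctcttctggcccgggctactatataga
ARRDC4, chr15:97960453-97960697, plus strand, 250 to 6 bases before the start: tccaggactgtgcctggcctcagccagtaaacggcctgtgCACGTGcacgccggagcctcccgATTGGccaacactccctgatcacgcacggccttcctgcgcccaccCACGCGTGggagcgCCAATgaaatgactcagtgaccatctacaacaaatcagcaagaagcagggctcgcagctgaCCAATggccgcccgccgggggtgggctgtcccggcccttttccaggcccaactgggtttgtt
ARRDC3, chr5:91380109-91380137, minus strand, 40 to 12 bases before the downstream start: agcccggcactTGTTTACcacggcgcggc

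In the 250 bases before its upstream start, TXNIP held 4 matches to CACGNG. A pair of them lay at 88 to 83 and 77 to 72 bases before the start, with 5 bases between them. Such a pair in the same orientation and spacing was found in 16 of the 35116 start sites searched, or 0.0456%, whereas a single CACGNG occurred in 26.7% of start sites. The pair searched for was the one that TXNIP has, so TXNIP is itself among the 16. Pairs in other orientations or spacings were not counted, and nothing is drawn from how rare this pair is. ARRDC4 held 3 matches to CACGNG, of which those at 142 and 140 bases before the start overlap, and no pair at that spacing. CCAAT occurred 3 times in ARRDC4 and 2 times in TXNIP, and in 32.0% of all start sites. GTAAACA lay at 124 bases before the TXNIP start and, on the opposite strand, at 29 bases before the downstream start of ARRDC3. It occurred in 2.98% of start sites. ARRDC3 also held a CACGNG at 193 bases before the downstream start and a CCAAT at 241 bases before the upstream start, and the downstream start of TXNIP held none of the 3. A match describes letters in these windows, and binding was not measured.

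**Figure D1:**
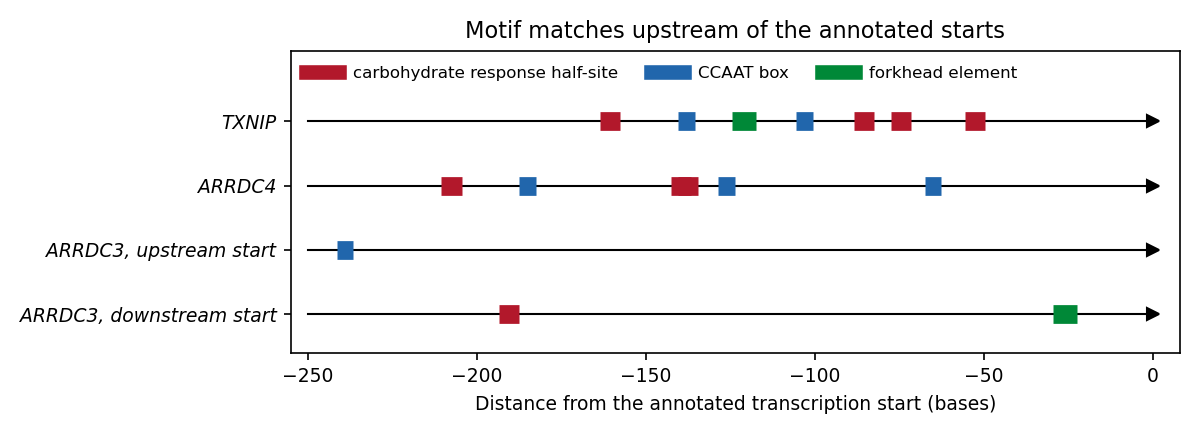
Matches to 3 elements in the 250 bases before the annotated starts of TXNIP, ARRDC4 and ARRDC3, drawn to scale by distance from the start (arrowhead, in bases). TXNIP and ARRDC4 show clusters of carbohydrate response cores and CCAAT boxes, and a forkhead element appears in TXNIP and before the downstream start of ARRDC3.

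The libraries held 112461380 to 136594350 counts. Among the markers of the line, KRT8, KRT18, KRT19 and KRT7 were measured, while EPCAM, CDH1 and NKX2-1 lay under 1 CPM in all 4 libraries. The 7 markers summed to 4312 and 3896 CPM in DZNep 4 Gy and DZNep 0 Gy, against 1776 and 1503 CPM in DMSO 4 Gy and DMSO 0 Gy. Most of each sum was KRT8 and KRT18, at 2048 and 2070 CPM in DZNep 4 Gy and 862 and 654 CPM in DMSO 4 Gy. Both rose with DZNep (1.35, SE 0.13, and 1.58, SE 0.13), or 50.0% of the 4 tested, against 23.1% of all tested genes. KRT7 (0.52, SE 0.19) and KRT19 (-0.27, SE 0.16) did not pass, so the sums do not speak for each marker. Of 19 markers of muscle, blood, vessel, fibroblast, fat and liver cells, 14 lay under 1 CPM in each library, among them the muscle genes MYOG, CKM, DES and ACTA1, and the list summed to 104 and 87.2 CPM with DZNep against 226 and 115 CPM with DMSO. Of the 5 tested, COL1A1, COL3A1, ACTA2 and MYH11 fell with DZNep and CD68 did not pass. That is 80.0%, against 23.1% of all tested genes. COL1A1 passed narrowly (adjusted p = 0.0491, edgeR's quasi-likelihood test). It did not pass under RLE scaling, under DESeq2 or without a filter on low counts. In a model without dose 0 of the 5 fell. The smooth muscle actin gene ACTA2 stood at 9.57 and 3.85 CPM in DZNep 4 Gy and DZNep 0 Gy against 95.4 and 13.1 CPM in DMSO 4 Gy and DMSO 0 Gy, a fall with DZNep (-2.56, SE 0.30) and a rise with radiation (2.11, SE 0.29). MYH11, smooth muscle myosin, lay between 6.60 and 14.8 CPM and fell with DZNep (-0.93, SE 0.19). ALB was at 0 in all 4. The part of these shifts in the results below was not tested. CDKN1A, a p53 target that checks the radiation labels, stood at 1307 CPM in DZNep 4 Gy against 251 CPM in DZNep 0 Gy, and at 1296 CPM in DMSO 4 Gy against 201 CPM in DMSO 0 Gy. AHCY (-0.33, SE 0.14) and EZH2 (-0.26, SE 0.17) did not pass the test of the drug effect.

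FBXO32 was the member that rose with DZNep. It had 1998 counts or 17.6 CPM in DZNep 4 Gy and 1953 counts or 15.1 CPM in DZNep 0 Gy, against 316 counts or 2.81 CPM in DMSO 4 Gy and 200 counts or 1.44 CPM in DMSO 0 Gy. Both DZNep libraries stood above both DMSO libraries, as they did for 26.3% of all tested genes. In a model of drug and dose over the 4 libraries, the log2 fold change with DZNep was 3.01 (SE 0.24, adjusted p = 7.23e-06, edgeR's quasi-likelihood test with Benjamini-Hochberg adjustment over all genes), or 8.04-fold. Of all tested genes, 23.1% passed with DZNep (10.8% higher and 12.3% lower), and FBXO32 ranked 39 of 13378 by fold change, from the highest. With 4 libraries and 3 coefficients, 1 degree of freedom remains for the spread, which takes in any way that drug and dose fail to add. To this the test adds a prior of 11.5 degrees of freedom, borrowed from the spread over all tested genes. Each p-value therefore rests largely on that shared spread and little on the gene's own. No label says that the libraries came from separate cultures, so the p-values cover the variation among these 4 only. In RNA of a whole culture, fewer cells that express a gene and less of its RNA per cell cannot be told apart.

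Library by library, FBXO32 was 6.21-fold higher with DZNep at 4 Gy (log2 ratio 2.63, interval 2.47 to 2.82) and 10.3-fold higher at 0 Gy (3.37, interval 3.17 to 3.6). These are exact 95% intervals that cover counting error only, and the ratios have no replicate check. Of all tested genes, 1.96% at 4 Gy and 2.2% at 0 Gy were at least 2-fold higher with DZNep and reached 10 CPM there. In DZNep, FBXO32 was 17.6 CPM at 4 Gy against 15.1 CPM at 0 Gy, a log2 ratio of 0.22 (interval 0.13 to 0.31). In DMSO it was 2.81 CPM at 4 Gy against 1.44 CPM at 0 Gy, a log2 ratio of 0.95 (interval 0.70 to 1.22). Over both arms the radiation effect on FBXO32 did not pass the test (0.56, SE 0.23, adjusted p = 0.179). The single ratios of drug and dose, multiplied, give 29.4 CPM for DZNep 4 Gy, where 17.6 CPM was measured. Against DMSO 0 Gy, cells given both treatments had a log2 ratio of 3.59 (interval 3.39 to 3.82) for FBXO32, and 3.67% of tested genes were at least 2-fold higher in that pair at 10 CPM or more.

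TXNIP was the member that rose with radiation, and it was higher at 4 Gy in DZNep as well as in DMSO. It had 6326 counts or 55.6 CPM in DZNep 4 Gy and 2532 counts or 19.6 CPM in DZNep 0 Gy, and 5427 counts or 48.3 CPM in DMSO 4 Gy against 2152 counts or 15.5 CPM in DMSO 0 Gy. Both irradiated libraries stood above both unirradiated ones, which held for 15.8% of tested genes. The radiation effect was 1.57 (SE 0.17, adjusted p = 0.000351, edgeR's quasi-likelihood test), or 2.97-fold, and TXNIP ranked 55 of 13378 by fold change. Of all tested genes, 3.06% passed with radiation (2.17% higher and 0.897% lower). In a model without drug as a factor the effect was 1.57 (SE 0.24) with an adjusted p of 0.928, and edgeR's quasi-likelihood test then called 0 genes, with 524 at an unadjusted p under 0.05.

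The radiation ratio of TXNIP was 1.51 in DZNep (interval 1.44 to 1.57) and 1.63 in DMSO (interval 1.56 to 1.71). A radiation ratio of at least 2-fold, at 10 CPM or more in the irradiated library, was found in 0.508% of tested genes in DZNep and 1.25% in DMSO. The drug ratios of TXNIP were small. It was 1.15-fold higher with DZNep at 4 Gy (log2 ratio 0.20, interval 0.15 to 0.26) and 1.26-fold higher at 0 Gy (0.33, interval 0.25 to 0.42). Both DZNep libraries thus lay above the DMSO library of the same dose, by amounts larger than counting error, but the effect over both doses did not pass the test (0.27, SE 0.16, adjusted p = 0.26). With both treatments TXNIP stood 3.57-fold above DMSO 0 Gy, and the multiplied single ratios give 60.8 CPM against the 55.6 CPM seen.

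**Figure D2:**
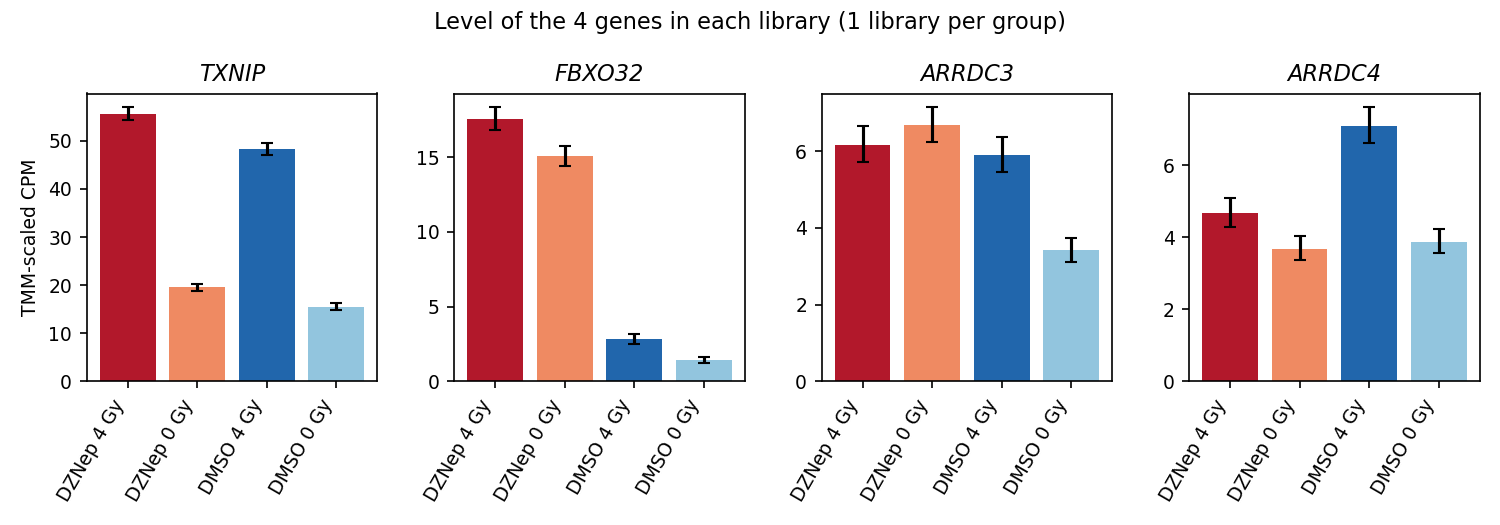
TMM-scaled CPM of TXNIP, FBXO32, ARRDC3 and ARRDC4 in each of the 4 libraries, with 95% Poisson intervals of the counts as error bars (counting error only, 1 library a group). TXNIP follows the dose, with 55.6 and 48.3 CPM at 4 Gy, and FBXO32 follows the drug, with 17.6 and 15.1 CPM in DZNep.

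ARRDC3, an adaptor reported to bring NEDD4-family ligases to the beta2-adrenergic receptor and integrin beta4, was low in a single library. It had 702 counts or 6.17 CPM in DZNep 4 Gy, 865 counts or 6.68 CPM in DZNep 0 Gy, 663 counts or 5.90 CPM in DMSO 4 Gy and 473 counts or 3.42 CPM in DMSO 0 Gy. DMSO 0 Gy stood apart below the other 3 libraries, which spanned 5.90 to 6.68 CPM. DZNep was therefore 1.95-fold over DMSO at 0 Gy (log2 ratio 0.96, interval 0.80 to 1.13) and 1.05-fold at 4 Gy (0.06, interval -0.09 to 0.22). Radiation gave a log2 ratio of -0.11 in DZNep (interval -0.26 to 0.03) and 0.79 in DMSO (interval 0.62 to 0.96). Neither the drug effect (0.51, SE 0.27, adjusted p = 0.185) nor the radiation effect (0.33, SE 0.27, adjusted p = 0.517) passed the test.

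The exons of ARRDC3 overlap those of the antisense gene ARRDC3-AS1, and since the use of strand in counting is not given in the sources used here, reads of the pair could not be told apart with certainty. ARRDC3-AS1 had 43 and 45 counts in DZNep 4 Gy and DZNep 0 Gy, against 101 and 90 counts in DMSO 4 Gy and DMSO 0 Gy. Of the counts of both genes together it took 5.77% and 4.95% with DZNep against 13.2% and 16.0% with DMSO. Summed with it, an alternative chosen after seeing the data, ARRDC3 stood at 6.55 and 7.03 CPM in DZNep 4 Gy and DZNep 0 Gy against 6.80 and 4.07 CPM in DMSO 4 Gy and DMSO 0 Gy. The log2 ratio of DZNep to DMSO for the sum was -0.05 at 4 Gy and 0.79 at 0 Gy.

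ARRDC4, a MondoA target like TXNIP, was highest in a single library. It had 531 counts or 4.67 CPM in DZNep 4 Gy, 477 counts or 3.69 CPM in DZNep 0 Gy, 797 counts or 7.09 CPM in DMSO 4 Gy and 536 counts or 3.87 CPM in DMSO 0 Gy. DMSO 4 Gy stood above the other 3 libraries, which spanned 3.69 to 4.67 CPM. Irradiated cells had a log2 ratio of 0.34 in DZNep (interval 0.16 to 0.52) and 0.87 in DMSO (interval 0.71 to 1.03). Both irradiated libraries exceeded both unirradiated ones, as they did for 15.8% of all tested genes. The ratio of DZNep to DMSO was -0.60 at 4 Gy (interval -0.76 to -0.44) and -0.07 at 0 Gy (interval -0.25 to 0.11). Neither the radiation effect (0.61, SE 0.25, adjusted p = 0.197) nor the drug effect (-0.34, SE 0.25, adjusted p = 0.365) passed the test.

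**Figure D3:**
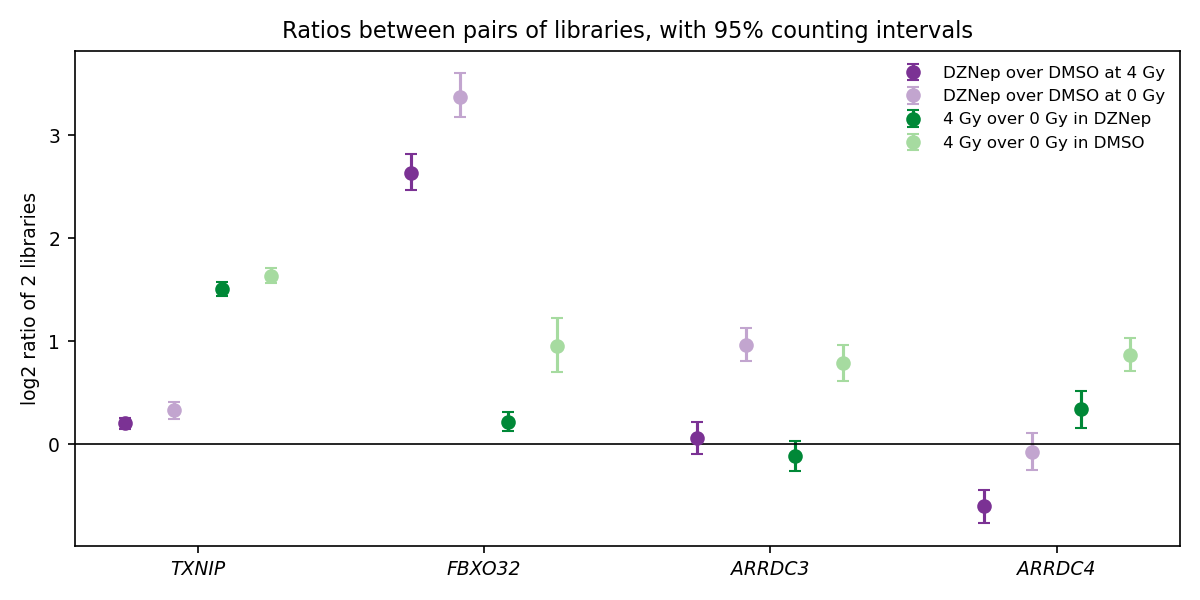
Log2 ratios between pairs of libraries for the 4 genes, with exact 95% intervals that cover counting error only. FBXO32 has the highest drug ratios (2.63 at 4 Gy and 3.37 at 0 Gy), TXNIP the highest radiation ratios (1.51 in DZNep and 1.63 in DMSO), and ARRDC3 shows a radiation ratio near 0 in DZNep but 0.79 in DMSO.

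For all 4 genes the radiation ratio was smaller in DZNep than in DMSO. The difference was -0.13 for TXNIP, -0.73 for FBXO32, -0.90 for ARRDC3 and -0.53 for ARRDC4 on the log2 scale. Across all tested genes the difference was negative for 49.6%, with a median of 0.004 and an SD of 0.531. At least as large a difference, in either direction, was found in 75.0% of tested genes for TXNIP, 11.6% for FBXO32, 7.05% for ARRDC3 and 22.6% for ARRDC4. The difference has no error estimate and was not tested, because a model with it would leave no spread. The 4 genes also share the same 4 libraries, so their differences are not independent of each other.

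Ratios of counts within a library do not depend on scaling. TXNIP had 11.9 counts per count of ARRDC4 in DZNep 4 Gy and 5.31 in DZNep 0 Gy, and 6.81 in DMSO 4 Gy against 4.01 in DMSO 0 Gy. At each dose this ratio was higher with DZNep, and in both DZNep and DMSO it was higher after radiation. TXNIP per count of ARRDC3 was 9.01 and 2.93 in DZNep 4 Gy and DZNep 0 Gy, against 8.19 and 4.55 in DMSO 4 Gy and DMSO 0 Gy, so the direction between drug and solvent differed with dose. TXNIP per count of FBXO32 was 3.17 and 1.30 with DZNep at 4 and 0 Gy, and 17.2 and 10.8 with DMSO. ARRDC3 per count of ARRDC4 was 1.32 and 1.81 with DZNep against 0.832 and 0.882 with DMSO.

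Per kilobase of annotated exon, TXNIP was the highest of the 4 genes in every library, at 15.3 and 5.4 CPM per kb in DZNep 4 Gy and DZNep 0 Gy and 13.3 and 4.29 CPM per kb in DMSO 4 Gy and DMSO 0 Gy. FBXO32 came next with DZNep, at 2.38 and 2.04 CPM per kb, but lowest with DMSO, at 0.380 and 0.195 CPM per kb. ARRDC3 lay at 1.25 and 1.35 CPM per kb with DZNep against 1.20 and 0.693 with DMSO, and ARRDC4 at 1.15 and 0.905 with DZNep against 1.74 and 0.951 with DMSO. ARRDC3 and ARRDC4 changed places between drug and solvent. With 1 library a group, no neighbours in this order can be said to differ beyond a spread, and the lengths are exon unions of GENCODE release 29, which may not match the authors' annotation.

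Of the tested arrestin genes TXNIP was the 1 that passed in either direction, under each scaling and under DESeq2. With radiation 14.3% of them passed, against 3.06% of all tested genes, and with DZNep 0.0%, against 23.1%. The radiation share is TXNIP alone, a chosen member, so no excess is drawn from it. Of 10 alpha-arrestin, beta-arrestin and visual arrestin genes, 7 were tested: 0 rose and 0 fell with DZNep by edgeR's quasi-likelihood test or DESeq2, with 0 at an unadjusted p under 0.05 (median 0.11, against -0.02 over all tested genes), and 1 rose and 0 fell with radiation (median 0.31, against 0.01). ARRDC2 was the other abundant alpha-arrestin, at 8.59 and 6.41 CPM per kb in DZNep 4 Gy and DZNep 0 Gy against 7.36 and 6.40 CPM per kb in DMSO 4 Gy and DMSO 0 Gy, and its radiation effect was 0.31 (SE 0.16, adjusted p = 0.307). ARRDC1 had a radiation effect of 0.26 (SE 0.20) and a drug effect of -0.27 (SE 0.20). ARRB2, a beta-arrestin that uncouples receptors from G proteins, was far more abundant, at 218 and 193 CPM per kb with DZNep at 4 and 0 Gy and 183 and 162 CPM per kb with DMSO. ARRDC5 and SAG were listed at 0 in all 4 libraries, and ARR3 lay below the filter. The catalase gene CAT, which most cells express, was also listed at 0 in all 4, so no limit is drawn from a 0.

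**Figure D4:**
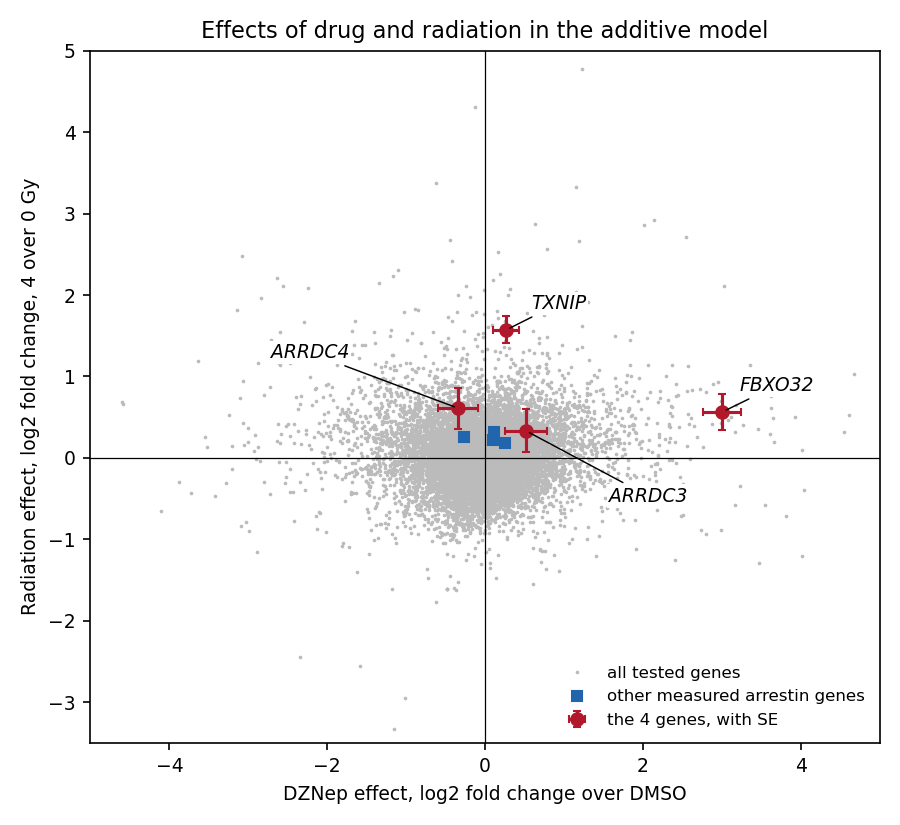
Drug effect (horizontal, DZNep over DMSO) against radiation effect (vertical, 4 over 0 Gy) as log2 fold changes of the additive model for 13378 genes, of which 12 lie outside the axes. TXNIP lies high on the radiation axis at 1.57 and FBXO32 far along the drug axis at 3.01, while ARRDC3, ARRDC4 and the other arrestins (squares) lie nearer the centre; bars are SE.

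Among partners of the alpha-arrestins, the NEDD4-family ligases passed with DZNep in 22.2% of cases, against 23.1% of all tested genes. Of 9 ubiquitin ligases of the NEDD4 family, with DZNep 1 rose, NEDD4L (0.55, SE 0.14, adjusted p = 0.0148), 1 fell, HECW1 (-2.14, SE 0.27, adjusted p = 0.000172), and 7 did not pass, among them NEDD4 itself (-0.32, SE 0.15), WWP2 (0.30, SE 0.15) and ITCH (-0.12, SE 0.16). Their median was -0.12, and with radiation 0 of 9 passed by edgeR's quasi-likelihood test or DESeq2, with 2 at an unadjusted p under 0.05 (median 0.10). Of 8 listed membrane proteins, reported cargo of alpha-arrestins and close relatives, 6 were tested, and with DZNep 2 rose and 1 fell. That is 50.0%, against 23.1% of all tested genes. SLC2A1, the glucose transporter GLUT1 that TXNIP helps to internalise, stood at 238 and 243 CPM in DZNep 4 Gy and DZNep 0 Gy against 140 and 110 CPM in DMSO 4 Gy and DMSO 0 Gy. It rose with DZNep (0.95, SE 0.16, adjusted p = 0.00103) and did not pass with radiation (0.16, SE 0.15). The related glucose transporter gene SLC2A3 also rose with DZNep (0.65, SE 0.16), and ITGB4, integrin beta4, fell (-0.52, SE 0.17, adjusted p = 0.0404). ITGB4 was the 1 of 6 that passed with radiation, where it rose (0.87, SE 0.17, adjusted p = 0.0177). With radiation 16.7% of this list thus passed, against 3.06% of all tested genes. The list's median was 0.09 for the drug and 0.08 for radiation.

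In the thioredoxin system, on which TXNIP acts, 17.4% of genes passed with DZNep, against 23.1% of all tested genes. Of 23 genes, 0 rose and 4 fell (median -0.15): TXNRD3, a thioredoxin reductase (-1.28, SE 0.33), the methionine sulfoxide reductase genes MSRA (-0.79, SE 0.19) and MSRB2 (-0.99, SE 0.34), and the thioredoxin relative NXN (-0.60, SE 0.18). MSRB2 and TXNRD3 averaged 1.24 and 1.43 CPM, and the adjusted p of MSRB2 was 0.04999; under DESeq2 MSRA and NXN were the 2 that passed. With a 10 CPM filter the glutaredoxin gene GLRX rose and MSRA, NXN and PRDX5 fell, of 17 tested. The abundant members did not pass: thioredoxin TXN (-0.17, SE 0.14), its reductase TXNRD1 (0.31, SE 0.13, adjusted p = 0.105) and the peroxiredoxins PRDX1 (0.02, SE 0.12) and PRDX3 (-0.27, SE 0.14). With radiation 0 of 23 passed in either direction by edgeR's quasi-likelihood test or DESeq2, with 6 at an unadjusted p under 0.05 in edgeR (median -0.15). With a 10 CPM filter 3 of 17 fell in edgeR (GLRX3, GSR and SRXN1), and under library size scaling 1 of 23 fell (SRXN1). GSR, glutathione reductase, was at -0.47 (SE 0.13, adjusted p = 0.0755) before that filter.

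Of 10 genes of the MondoA, ChREBP and MAX network, 3 rose and 2 fell with DZNep, or 50.0% against 23.1% of all tested genes. With radiation 0 passed by edgeR's quasi-likelihood test, with 3 at an unadjusted p under 0.05, and 1 by DESeq2. MLXIP, which encodes MondoA, stood at 63.4 and 66.1 CPM in DZNep 4 Gy and DZNep 0 Gy against 46.4 and 40.9 CPM in DMSO 4 Gy and DMSO 0 Gy, a rise (0.57, SE 0.16, adjusted p = 0.0214). MLXIPL, which encodes ChREBP, fell (-0.58, SE 0.17, adjusted p = 0.0302), at 21.2 and 13.2 CPM in DZNep 4 Gy and DZNep 0 Gy against 28.5 and 22.2 CPM in DMSO 4 Gy and DMSO 0 Gy. Their partner MLX did not pass (0.08, SE 0.15). The MAX-network repressor genes MXI1 (0.56, SE 0.19) and MGA (0.51, SE 0.17) also rose, and MXD4 fell (-1.30, SE 0.28). MXI1 and MGA passed narrowly (adjusted p = 0.0471 and 0.0496, edgeR's quasi-likelihood test). Without a filter on low counts 1 rose, MLXIP, and 1 fell, MXD4. MGA did not pass under DESeq2 or library size scaling, and in a model without dose 0 of the 10 passed. The list's median was 0.07 for the drug and 0.09 for radiation.

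Known targets of MondoA or ChREBP passed in both directions with the drug. Of 14, 11 were tested: with DZNep 1 rose, the repressor gene KLF10 (1.58, SE 0.17, adjusted p = 4.88e-05), and 3 fell, the lipid synthesis genes SCD (-0.96, SE 0.15), FASN (-0.84, SE 0.18) and ACACA (-0.71, SE 0.15). That is 36.4%, against 23.1% of all tested genes. With radiation TXNIP was the 1 that rose and 0 fell, or 9.09% against 3.06% of all tested genes. The radiation share is thus a chosen member alone, and no excess is drawn from it. KLF10 stood at 391 and 308 CPM in DZNep 4 Gy and DZNep 0 Gy against 160 and 84.8 CPM in DMSO 4 Gy and DMSO 0 Gy, and its radiation effect was 0.63 (SE 0.16, adjusted p = 0.0551). The medians were -0.16 and -0.04.

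Among ubiquitin ligase genes around FBXO32, FBXO32 was the 1 of 10 tested that rose with DZNep, and 0 fell (median 0.10). Among all tested genes 10.8% rose and 12.3% fell with DZNep, or 23.1% in either direction. The 1 call of this list is FBXO32, a chosen member, so neither an excess nor a lack is drawn from it. With radiation 0 passed by edgeR's quasi-likelihood test or DESeq2, with 2 at an unadjusted p under 0.05 (median 0.01). Its closest relative FBXO25 stood at 4.56 and 3.83 CPM in DZNep 4 Gy and DZNep 0 Gy against 3.07 and 3.37 CPM in DMSO 4 Gy and DMSO 0 Gy (0.38, SE 0.27, adjusted p = 0.339). The SCF core genes SKP1 (-0.30, SE 0.14) and CUL1 (-0.16, SE 0.17) did not pass. TRIM63, the other classic ligase gene of wasting muscle, was listed at 0 in all 4 libraries, as CAT was.

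Of 27 FOXO factors and genes they are known to regulate, 22 were tested. With DZNep 6 rose, 2 fell and 14 did not pass (median 0.25), so that 36.4% passed against 23.1% of all tested genes. That share counts FBXO32 itself, and the list was chosen with earlier results of these data known, so no excess is drawn from it. FOXO1 (0.99, SE 0.19, adjusted p = 0.00307) and FOXO4 (1.12, SE 0.27, adjusted p = 0.00994) rose, while FOXO3 did not pass (0.23, SE 0.18). Besides FBXO32, the rises were CITED2, a transcriptional co-regulator (3.62, SE 0.21), TSC22D3, a glucocorticoid-induced leucine zipper protein (2.22, SE 0.17), and PDK4, a kinase that restrains pyruvate use (1.41, SE 0.30). SESN1 (-0.85, SE 0.25) and BNIP3 (-0.59, SE 0.15) fell. TSC22D3 stood at 78.4 and 49.0 CPM in DZNep 4 Gy and DZNep 0 Gy against 17.5 and 10.1 CPM in DMSO 4 Gy and DMSO 0 Gy. With radiation 3 rose, 0 fell and 19 did not pass (median 0.18), or 13.6% against 3.06% of all tested genes. The rises were GADD45A (2.01, SE 0.17), SESN1 (1.82, SE 0.26) and TSC22D3 (0.74, SE 0.16, adjusted p = 0.0328). GADD45A and SESN1 are also known p53 targets.

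Of 7 genes whose proteins are reported as substrates of FBXO32, 6 were tested, and with DZNep 3 rose and 0 fell (median 0.54). That is 50.0%, against 23.1% of all tested genes. The transcription factor genes KLF4 (1.38, SE 0.16) and MYC (0.68, SE 0.14) and the phosphatase gene DUSP1 (1.27, SE 0.19) rose in RNA. Meanwhile EIF3F, a translation factor degraded by FBXO32 in muscle, did not pass (-0.21, SE 0.14). With radiation 0 of 6 passed by edgeR's quasi-likelihood test, with 3 at an unadjusted p under 0.05, and 1 by DESeq2 (median 0.20). The libraries hold RNA only. Of 12 genes that earlier work tied to DZNep, 10 were tested: FBXO32, KLF2 (1.26, SE 0.17) and CRIP1 (0.48, SE 0.14) rose with the drug, 0 fell, and TXNIP, CDKN1A (2.53, SE 0.15) and TGFBI (0.62, SE 0.14) rose with radiation, with 0 falls (medians 0.40 and 0.35). That is 30.0% with the drug, against 23.1% of all tested genes, and 30.0% with radiation, against 3.06%. The choice of that list was not independent of these data.

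**Figure D5:**
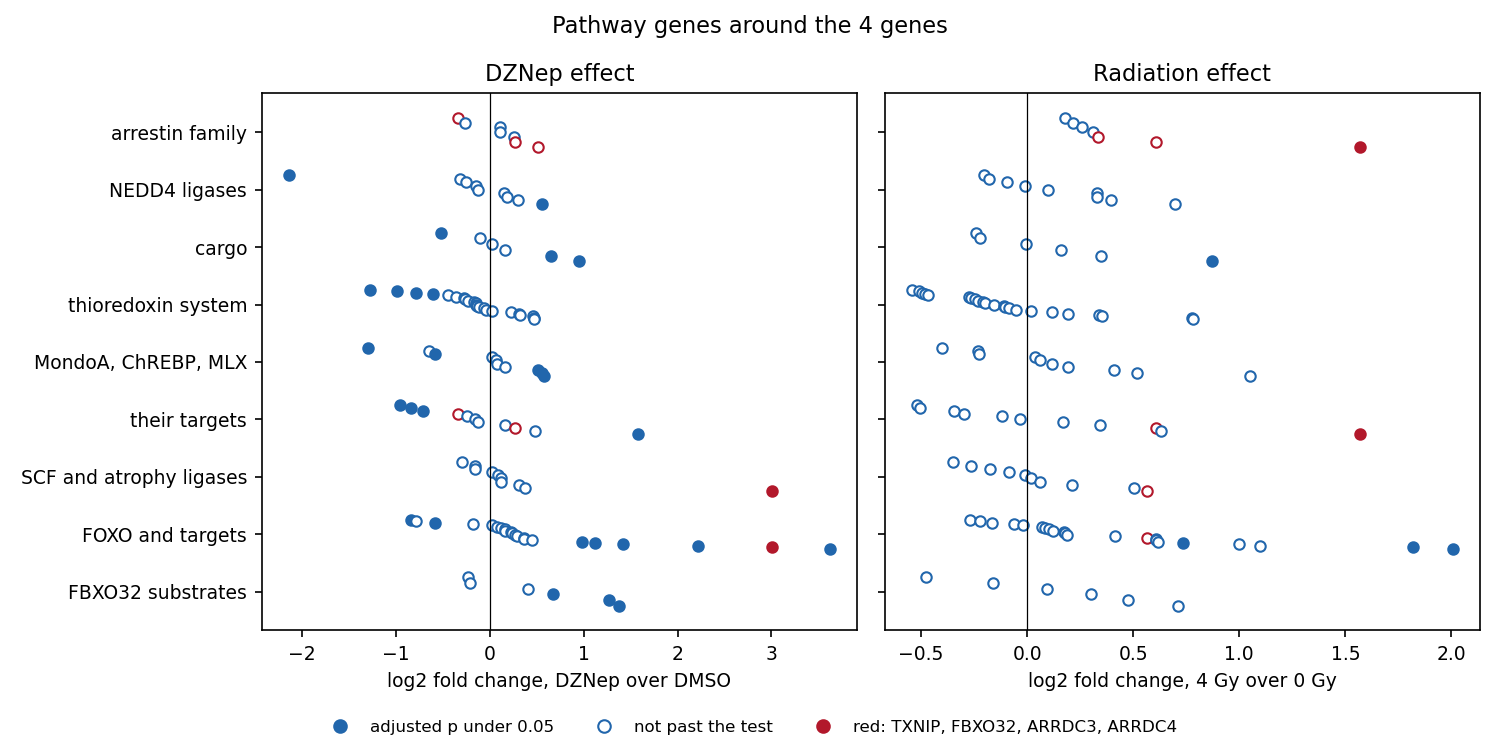
Log2 fold changes of the tested genes of 9 lists, with DZNep over DMSO on the left and 4 Gy over 0 Gy on the right; each point is 1 gene, filled where it passed the test at an adjusted p under 0.05, and red for the 4 genes. FBXO32 and CITED2 reach 3.01 and 3.62 on the drug axis, and GADD45A, SESN1 and TXNIP reach 2.01, 1.82 and 1.57 on the radiation axis.

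The genes most like each member were found among 7689 genes averaging 10 CPM or more, by the Euclidean distance between log2 CPM values centred on each gene's mean over the 4 libraries. With 4 libraries many genes share a pattern, so this is a description only. Nearest to TXNIP were PHLDA3, an AKT inhibitor and p53 target (distance 0.268), CYFIP2 (0.361) and PLXNB2 (0.367). PHLDA3 stood at 30.7 and 9.78 CPM in DZNep 4 Gy and DZNep 0 Gy, against 30.5 and 7.91 CPM in DMSO 4 Gy and DMSO 0 Gy. Nearest to FBXO32 were THBS1, which encodes the matrix protein thrombospondin (0.160), ANKRD1 (0.300) and the collagenase gene MMP1 (0.468). THBS1 stood at 31.4 and 23.1 CPM in DZNep 4 Gy and DZNep 0 Gy, against 4.74 and 2.39 CPM in DMSO 4 Gy and DMSO 0 Gy.

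Nearest to ARRDC3 were ABCC9 (0.0861), BDNF-AS (0.0864) and WSB1 (0.103), and WSB1 stood at 45.3, 45.1 and 41.5 CPM in DZNep 4 Gy, DZNep 0 Gy and DMSO 4 Gy, against 25.2 CPM in DMSO 0 Gy. BDNF-AS lies antisense to BDNF, so its count is uncertain. Nearest to ARRDC4 were MYO6, a myosin gene (0.0547), APLP1 (0.0806) and SPRY3 (0.0825). MYO6 stood at 20.7 and 16.7 CPM in DZNep 4 Gy and DZNep 0 Gy, against 33.0 and 17.3 CPM in DMSO 4 Gy and DMSO 0 Gy. Among the 4 genes themselves, ARRDC3 and ARRDC4 were the closest pair (0.915) and FBXO32 and ARRDC4 the most distant (3.35), with TXNIP at 1.16 from ARRDC4, 1.32 from ARRDC3 and 2.93 from FBXO32.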

How the data were processed

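The labels name a SENSE mRNA kit from Lexogen for the 4 libraries of NCI-H460 RNA. Each library came as a table of raw counts by gene symbol, which the authors deposited without normalization. TopHat, edgeR and the hg19 build stand in the submitters' processing notes. The sources used here do not give their versions, the counting program, the annotation or the use of strand. Of the counts from 1 to 59, 55.9% to 58.1% were even; whether mates were counted apart was not tested, and halved counts were an alternative.

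TMM scaling (factors 0.979 to 1.01) and tests used edgeR 4.0.16 in R 4.3.3. Genes at 1 CPM or more in at least 2 libraries were fitted with terms for drug and dose and no interaction. The quasi-likelihood test was used at a Benjamini-Hochberg adjusted p of 0.05. The procedure was checked on simulated data, with known drug effects in genes averaging 10 CPM or more. FBXO32, ARRDC3 and ARRDC4 averaged less (9.23, 5.54 and 4.83 CPM). No radiation effect and no departure from the additive model was simulated, so the check does not cover these. The SE is the size of the log2 change over the square root of the F statistic. Pair ratios carry a prior count of 2 and an exact conditional binomial interval at 95%, without the prior count. DESeq2 1.42.0, other scalings, filters and models, and left-out libraries were further alternatives.

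From each list, genes past the threshold and up to 4 others of highest mean CPM could be named. TXN, FBXO25, FOXO3, genes at 0 and genes called only under an alternative were named outside this rule with their values seen. The members and lists were chosen with earlier results of these data known.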

Additional observations from a re-analysis of the deposited data

Results flagged for a closer look

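For ARRDC3 the irradiated library was lower than the unirradiated one in DZNep and higher in DMSO. It stood at 6.17 CPM in DZNep 4 Gy against 6.68 CPM in DZNep 0 Gy, and at 5.90 CPM in DMSO 4 Gy against 3.42 CPM in DMSO 0 Gy. The radiation ratio in DZNep minus that in DMSO was -0.90 on the log2 scale. The difference was not tested, since each group is 1 library, and the interval of the ratio in DZNep (-0.26 to 0.03) spans 0. Such opposite directions were found in 34.3% of the 13378 tested genes.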

How the results depend on the processing

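The call of FBXO32 with DZNep held under DESeq2, RLE or library size scaling, halved counts, a filter at 10 CPM and none, with log2 fold changes of 2.99 to 3.02, and without dose in the model (2.94). The call of TXNIP with radiation held under the same 6 alternatives (1.54 to 1.58) but not without drug in the model (1.57, adjusted p = 0.928). The other effects of the 4 genes did not pass under any alternative that gave a test; ARRDC3 and ARRDC4 were not tested under the 10 CPM filter. Leaving out a library leaves a single pair for each effect, so the values are the pair ratios given above, with no test and no further check. The DZNep effect then ranged from 2.63 to 3.37 for FBXO32, 0.0643 to 0.965 for ARRDC3 and -0.602 to -0.0711 for ARRDC4. The radiation effect ranged from 0.22 to 0.95 for FBXO32, -0.11 to 0.79 for ARRDC3 and 0.34 to 0.87 for ARRDC4, while both effects on TXNIP moved by less than their SE.

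Over all genes, DZNep gave 1446 rises and 1640 falls, and without dose in the model 355 and 366. Radiation gave 290 rises and 120 falls, or 70.7% rises. It gave 134 and 65 with no filter, 590 and 441 with a 10 CPM filter (57.2% rises), 452 and 217 with DESeq2, and 351 and 266 under library size scaling (56.9% rises). Without drug in the model edgeR's quasi-likelihood test gave 0 and 0, with 524 genes at an unadjusted p under 0.05. The cause of these moves was not tested. Counts over all genes could not be made with a library left out, as 3 libraries leave no residual degree of freedom. Of 31 list genes called with DZNep, RLE lost MSRB2, library size scaling MGA, DESeq2 4 (MGA, MSRB2, PDK4, TXNRD3), no filter 6 (ITGB4, MGA, MLXIPL, MSRB2, MXI1, NXN) and the model without dose 23. The 10 CPM filter left 6 untested and added GLRX and IGFBP3 as rises and PRDX5 and TGFBI as falls; library size scaling also added TGFBI as a fall. Of 7 called with radiation, no filter lost TGFBI and TSC22D3, the model without drug lost all 7 and the 10 CPM filter left SESN1 untested. New radiation calls were BCL6, DUSP1, KLF10 and MXD4 (rises, DESeq2 and RLE); BCL6, DUSP1 and MXD4 (rises) with SCD and SRXN1 (falls) under library size scaling; BCL6 with halved counts; and 8 rises and 5 falls (GLRX3, GSR, MYC, SCD, SRXN1) with the 10 CPM filter. Directions of calls did not reverse in these 10 lists. Pair ratios of the 4 genes moved by at most 0.0444 under other scalings or prior counts. No paired analysis was possible because the labels give no replicate numbers. The lowest count of the 4 genes in a library was 200, for FBXO32 in DMSO 0 Gy.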
